A study of Sus scrofa with 36 samples.

Results

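The genes described here are 10 genes used as markers of cerebellar granule neurons: NEUROD1, NEUROD2, ZIC1, ZIC2, PAX6, ETV1, RELN, CBLN1, CBLN3 and FAT2. They were taken from a list of names, with no measured value in the rule. Earlier results of these data were known when they were chosen. All 10 were found among the 31907 Ensembl pig gene identifiers that the deposited tables list. The cerebellum came from male and female crossbred piglets born at term (Danish landrace × Yorkshire × Duroc), which were moved to the facility when 3 days old and fed formula for about 3 weeks. The 4 groups held 9 piglets each. VEG-NBW and VEG-IUGR piglets received formula with vegetable oil, and MILK-NBW and MILK-IUGR piglets received formula with bovine milk fat. NBW stands for normal birth weight and IUGR for intrauterine growth restriction, and the study defined IUGR by birth weight and head shape. All groups were fed formula, and no sow-fed group stands beside them. The comparisons asked whether the fat source, the birth weight or their combination was followed by other levels of these genes.

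Granule neurons are the small excitatory neurons of the cerebellar cortex and the most numerous neurons of the brain. Their progenitors divide in the external granular layer after birth, and the cells then move inward past the Purkinje cells and Bergmann glia to the internal granular layer. Their parallel fibres form synapses on Purkinje cell dendrites. In whole tissue, fewer granule neurons and less RNA of these genes per granule neuron cannot be told apart.

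Read pairs were counted per gene in 36 libraries, 1 per piglet. In 3 libraries, piglet 202 (VEG-NBW), piglet 210 (VEG-IUGR) and piglet 213 (MILK-NBW), the share of read pairs not assigned to a gene stood apart from the other libraries of the group, at 43.6%, 64.3% and 31.5%. In the other 33 libraries it lay between 26.7% and 30.5%. The results below are from these 33 piglets, 8 in each group and 9 in MILK-IUGR, 16 females and 17 males, with total counts on genes of 15516541 to 23027502 (median 18025540). Counts and medians of the estimates with all 36 libraries are given beside those of each contrast. Levels are CPM, a gene's read pairs relative to all those counted on genes in the library, scaled between libraries by the trimmed mean of M-values (TMM). They are not divided by gene length, so levels were compared between piglets and not between genes. The tissue label was checked against genes of other regions. HOXA5 and HOXB5 of the caudal hindbrain and spinal cord had 0 counts in each of the 33 libraries. TBR1 of the cerebral cortex had 0 to 20 counts. GABRA6, a receptor subunit that marks mature granule neurons, had a median of 307 CPM before TMM scaling and was above 0 in all 33. All 10 granule neuron genes passed the filter on low counts, with between 2368 and 28904 counts in every library, so that counting error alone gave a coefficient of variation of 0.668% (CBLN1) to 1.76% (PAX6) at the median count. Piglets are separate animals. The study drew them from several litters, litter is not in the labels, and p-values take no account of it.

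By RefSeq coordinates of the build named in the submitters' processing notes (Sscrofa11.1), NEUROD1 lies on chromosome 15 from 87175629 to 87179953, NEUROD2 on chromosome 12 from 22709473 to 22713785 and ZIC1 on chromosome 13 from 87740769 to 87750258. ZIC1 stands 44 bp from ZIC4, its divergent neighbour and another member of the family. ZIC2 lies on chromosome 11 from 68840802 to 68845441, PAX6 on chromosome 2 from 28971565 to 29001149 and ETV1 on chromosome 9 from 83322818 to 83567136. RELN lies on chromosome 9 from 103460855 to 103963728, CBLN1 on chromosome 6 from 35516097 to 35518080, CBLN3 on chromosome 7 from 74865931 to 74868443 and FAT2 on chromosome 16 from 71448491 to 71531664. CBLN3 overlaps the gene KHNYN and ETV1 overlaps the pseudogene LOC100625701. The strand setting of the counting is not given in the sources used here, so reads of these pairs may not have been told apart.

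NEUROD1 and NEUROD2 are basic helix-loop-helix transcription factors of differentiating and mature granule neurons. The lowest, median and highest NEUROD1 levels were 599, 750 and 926 CPM in VEG-NBW piglets and 601, 765 and 919 CPM in VEG-IUGR piglets. They were 605, 695 and 790 CPM in MILK-NBW piglets and 657, 716 and 835 CPM in MILK-IUGR piglets. The 4 ranges overlapped, and both VEG groups reached further up than both MILK groups. NEUROD2 had medians of 294 CPM in VEG-NBW, 299 CPM in VEG-IUGR, 303 CPM in MILK-NBW and 279 CPM in MILK-IUGR piglets, within an overall range of 245 to 382 CPM.

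ZIC1 and ZIC2 are zinc finger transcription factors of granule neurons and their progenitors. The lowest, median and highest ZIC1 levels were 631, 737 and 995 CPM in VEG-NBW piglets and 645, 785 and 906 CPM in VEG-IUGR piglets. They were 558, 754 and 826 CPM in MILK-NBW piglets and 641, 744 and 856 CPM in MILK-IUGR piglets. The group medians thus differed by less than the range within any group. ZIC2 ranged from 281 to 534 CPM, with group medians between 377 CPM in MILK-IUGR and 423 CPM in VEG-IUGR piglets.

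PAX6, a paired-domain and homeodomain factor of the rhombic lip lineage, was the steadiest of the 10 genes. It ranged from 144 to 206 CPM over the 33 piglets, with group medians of 185 CPM in VEG-NBW, 179 CPM in VEG-IUGR, 173 CPM in MILK-NBW and 185 CPM in MILK-IUGR piglets. ETV1, an ETS family factor tied to the maturation of granule neurons, spanned 254 to 555 CPM. Both ends of that range were VEG-IUGR piglets, and the ETV1 group medians were 410, 453, 379 and 403 CPM in the same order.

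RELN encodes reelin, the large secreted protein through which granule cells guide the placement of Purkinje cells. The lowest, median and highest RELN levels were 391, 461 and 839 CPM in VEG-NBW piglets and 331, 504.1 and 705 CPM in VEG-IUGR piglets. They were 315, 492 and 569 CPM in MILK-NBW piglets and 407, 525.96 and 639 CPM in MILK-IUGR piglets. The RELN ranges were wide in every group and overlapped, and the VEG-NBW group held its highest value in piglet 215.

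CBLN1 encodes cerebellin 1, which granule cells release at the synapses of parallel fibres on Purkinje cells. CBLN3 encodes a granule cell cerebellin that is secreted together with cerebellin 1. CBLN1 ranged from 967 to 1537 CPM, with group medians of 1245 CPM in VEG-NBW, 1337 CPM in VEG-IUGR, 1202 CPM in MILK-NBW and 1267 CPM in MILK-IUGR piglets. CBLN3 ranged from 517 to 925 CPM, with medians of 720, 793, 787 and 707 CPM in the same order. The MILK-IUGR group was narrow for CBLN3 except for piglet 206, at 859 CPM.

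FAT2 encodes an atypical cadherin found on granule neurons and their parallel fibres. It ranged from 162 CPM in a MILK-NBW piglet to 503 CPM in a VEG-NBW piglet, the widest relative range of the 10 genes. The FAT2 group medians were 313, 291, 315 and 301 CPM in that order. For each of the 10 genes, each of the 6 pairs of groups overlapped, and the highest group median was between 1.06 and 1.19 times the lowest.

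**Figure D1:**
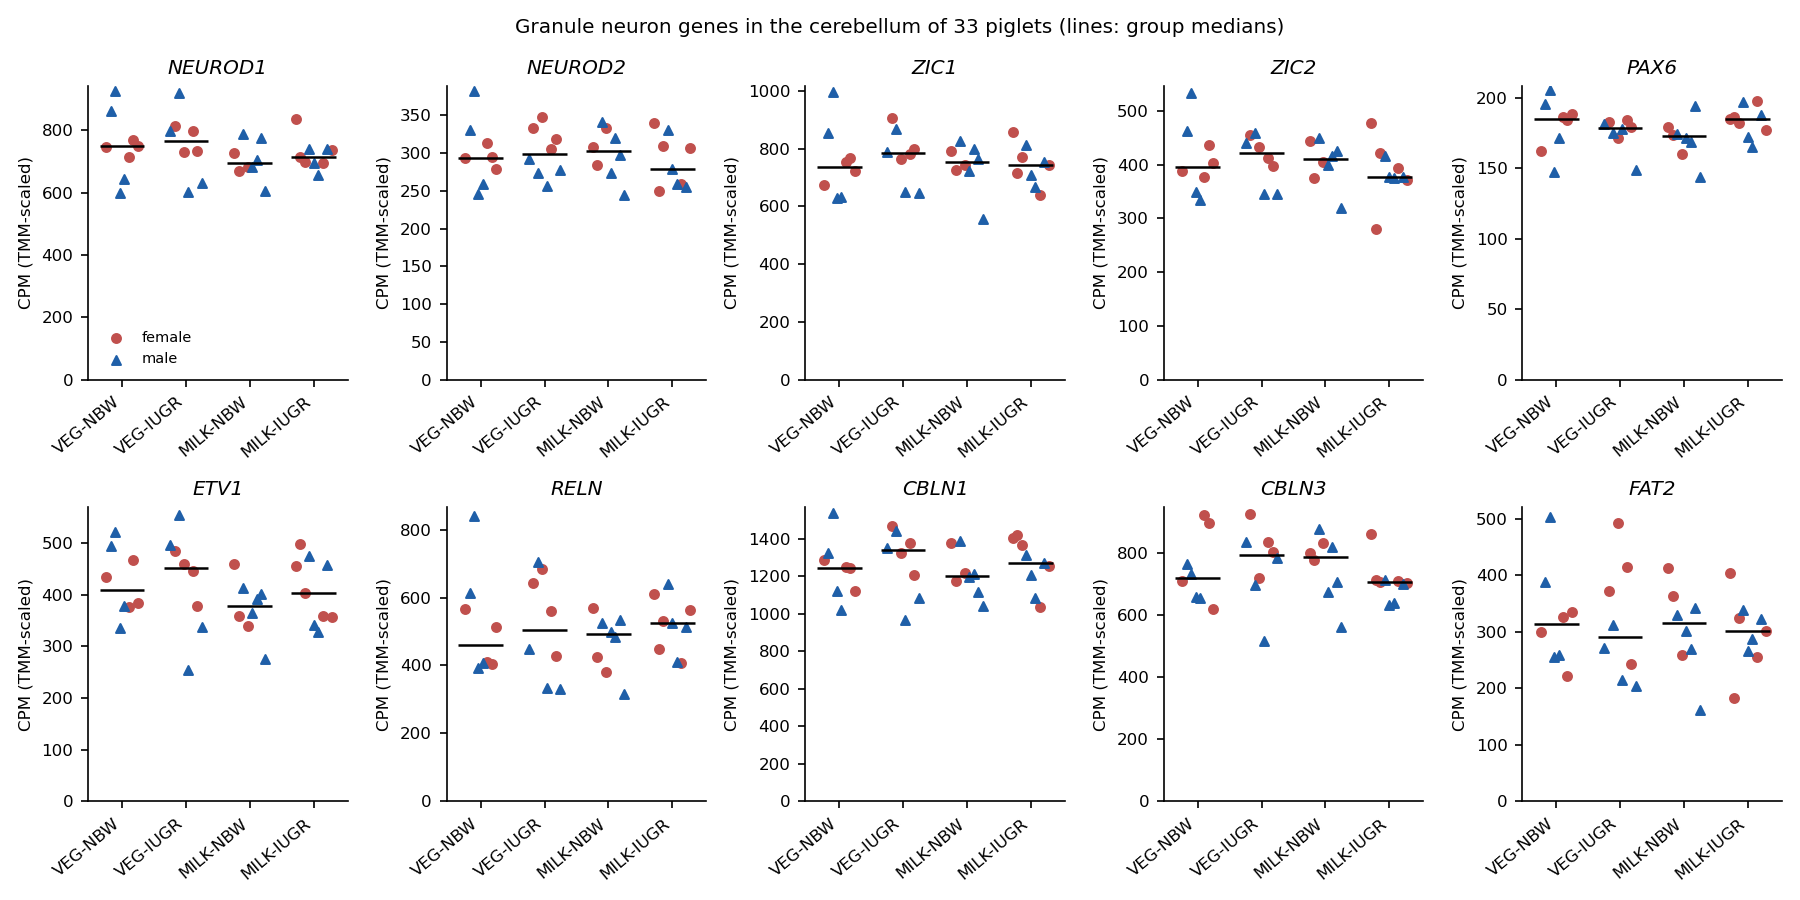
TMM-scaled CPM of the 10 genes (vertical axes, starting at 0) in each of 33 piglets by group. Circles are females, triangles are males and lines are group medians. The groups overlap in every panel, and FAT2 and RELN spread the most.

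No change with diet was called in any of the 10 genes. All 10 estimates of MILK minus VEG were below 0, but each was small: they ran from -0.11 for ETV1 to -0.0022 for PAX6 on the log2 scale, with a median of -0.049, against a median of -0.0051 over all 15559 genes tested. The 10 genes share piglets and vary together, so these signs are not 10 separate observations, and with all 36 libraries 7 of the 10 estimates were above 0 (median 0.043, against 0.038 over all genes). By edgeR's quasi-likelihood test with Benjamini-Hochberg adjustment over all genes, 0 of 10 had an adjusted p-value under 0.05 (lowest 0.983), and of all genes 0 (0%) had. At an unadjusted p-value under 0.05 the counts were 0 of 10 and 4.29% of all genes, and DESeq2 and limma voom also called 0 of the 10 and 0 of all genes. The smallest unadjusted p-value was that of ETV1 (0.187), followed by NEUROD1 (0.190), whose estimate was -0.074 with a standard error (SE) of 0.055. The 95% confidence intervals bound the differences: that of NEUROD1 ran from -12.1% to 2.69%, that of PAX6 from -6.06% to 6.12%, and the widest, of FAT2, from -20.3% to 12.7%.

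No change with birth weight was called either in the 10 genes. The estimates of IUGR minus NBW were above 0 for 6 genes and below 0 for 4, from -0.054 for FAT2 to 0.073 for RELN (log2), with a median of 0.018. None of the 10 genes and none of all genes (0%) passed the adjusted threshold in edgeR, and 0 of 10 against 2.21% of all genes had an unadjusted p-value under 0.05. DESeq2 and limma voom also called 0 of the 10 and 0 of all genes, and every edgeR adjusted p-value rounded to 1. CBLN1 had the smallest unadjusted p-value (0.479), with an estimate of 0.042 (SE 0.058). The 95% interval of NEUROD1 ran from -6.34% to 9.54% and that of ZIC1 from -7.09% to 10.2%, and the widest, of RELN, from -10.4% to 23.4%. With all 36 libraries 3 estimates were above 0 and 7 below (median -0.075), where the median over all genes was -0.044.

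The interaction asks whether the difference between diets was another one in IUGR than in NBW piglets. It ran from -0.16 for CBLN3 (SE 0.12) to 0.15 for RELN (SE 0.23) on the log2 scale, with 5 genes above and 5 below 0. Of the 10 genes 0 passed the adjusted threshold (lowest adjusted p-value 0.794, edgeR, PAX6 with 0.14, SE 0.085) and of all genes 0 (0%) did. At an unadjusted p-value under 0.05 the counts were 0 of 10 and 6.07%, and DESeq2 and limma voom called 0 of the 10, with 2 and 0 of all genes. These intervals are wide, from -0.50 (FAT2) to 0.61 (RELN), so an interaction of moderate size in RELN or FAT2 was not detectable with these piglets. With all 36 libraries 8 interaction estimates were above 0 (median 0.14, highest 0.37), where the median over all genes was 0.14 as well. In the contrasts between single groups, 0 of 10 genes were called by edgeR in MILK-NBW minus VEG-NBW, MILK-IUGR minus VEG-IUGR, VEG-IUGR minus VEG-NBW and MILK-IUGR minus MILK-NBW, where 0 genes of all (0%) were called, and in each of these 4 contrasts 0 of 10 had an unadjusted p-value under 0.05, against 6.7%, 3.92%, 2.37% and 6.27% of all genes. DESeq2 and limma voom also called 0 of the 10 in each, and at most 2 of all genes. The estimates there lay between -0.17 and 0.15. With all 36 libraries all 10 were above 0 in MILK-IUGR minus VEG-IUGR (median 0.098, all genes 0.13) and 7 were below 0 in VEG-IUGR minus VEG-NBW (median -0.11, all genes -0.12). The medians were then -0.042 in MILK-NBW minus VEG-NBW (all genes -0.013) and 0.030 in MILK-IUGR minus MILK-NBW (all genes 0.00067). With the share of unassigned reads in the model, all 10 were above 0 in VEG-IUGR minus VEG-NBW (median 0.070, all genes 0.0021), against 6 without it. In MILK-NBW minus VEG-NBW 6 were above 0, against 2 without it. The number above 0 stayed at 1 in MILK-IUGR minus VEG-IUGR and at 5 in MILK-IUGR minus MILK-NBW.

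Sex was in the model as a covariate. All 10 estimates of male minus female were below 0, and 0 of 10 passed the adjusted threshold in edgeR, against 25 of all genes (0.161%). By edgeR CBLN3 was the only one of the 10 with an unadjusted p-value under 0.05 (2.98% of all genes had one). Its estimate was -0.16 (SE 0.063), with an unadjusted p-value of 0.0172 that was lost on adjustment. Its lowest, median and highest levels were 620, 787 and 925 CPM in 16 females and 517, 698 and 875 CPM in 17 males. The ranges overlapped over most of their length, and DESeq2 and limma voom called 0 of the 10 genes, with 31 and 28 of all genes. By limma voom 2 of the 10 had an unadjusted p-value under 0.05, against 867 of all 15559 genes. With all 36 libraries 6 of the 10 sex estimates were above 0 (median 0.010, against 0.038 over all genes), and with the share of unassigned reads in the model 4 were.

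**Figure D2:**
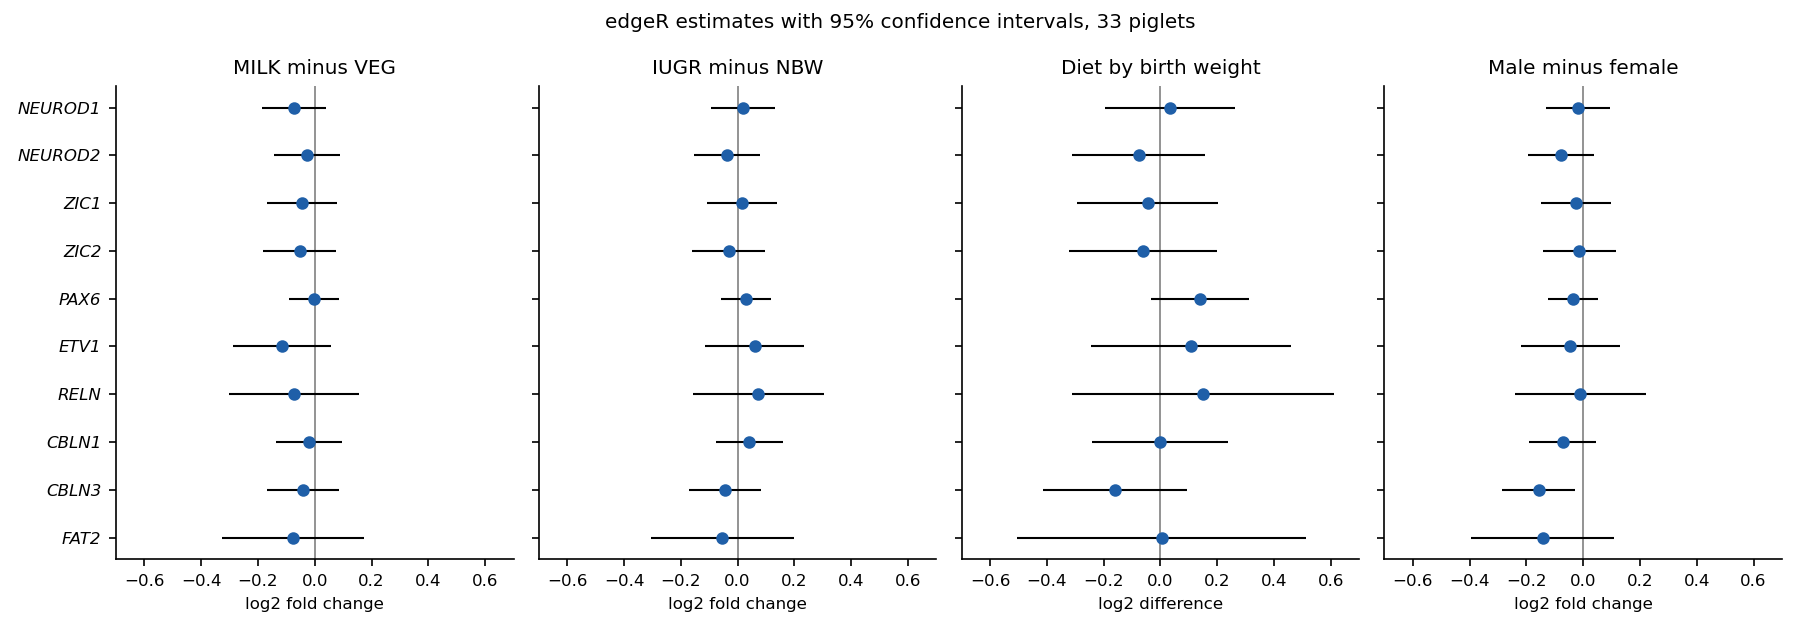
Estimates (points) and 95% confidence intervals (lines) of the 10 genes for diet, birth weight, their interaction and sex, on the log2 scale, from edgeR over 33 piglets. The intervals of diet, birth weight and interaction all hold 0, and among the sex estimates that of CBLN3 (-0.16) does not.

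The genes differed more in how much they varied between piglets of the same group and sex. The biological coefficient of variation, the spread that edgeR estimates beyond counting error, was 8.74% for PAX6 and between 11.5% and 13.0% for NEUROD1, NEUROD2, CBLN1, ZIC1, CBLN3 and ZIC2. It was 17.4% for ETV1, 22.6% for RELN and 24.9% for FAT2, against a median of 13.8% over all genes tested and 10.6% over genes at or above the level of the lowest of the 10. All but PAX6 lay above the second of these medians. From the lowest to the highest of the 33 piglets, FAT2 rose 3.11-fold, RELN 2.67-fold and ETV1 2.18-fold, and PAX6 1.43-fold. The same piglets stood at the ends for several genes. Piglet 215, a VEG-NBW male, had the highest level of 8 of the 10 genes (all but CBLN3 and ETV1). Piglet 234, a MILK-NBW male, was among the 5 lowest for all 10 genes. It was the lowest for 5 of them, NEUROD2, ZIC1, PAX6, RELN and FAT2. Of the 33 libraries, that of piglet 215 had the highest shares of unassigned reads (30.5%) and of read pairs without a feature (12.5%). The library of piglet 234 had the lowest of both (26.7% and 7.67%). The part of these shares in the extreme levels was not tested. Piglet 211, a VEG-IUGR male, was among the 5 lowest for 8 genes. Piglets 203 and 204, both VEG-IUGR, had the highest CBLN3 and ETV1. The highest level of each gene was thus in a VEG piglet. Piglet 206, a MILK-IUGR female, was among the 5 highest for 7 genes. The lowest levels occurred in both diets and both birth weights.

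The levels of the 10 genes rose and fell together between piglets. All 45 pairs of genes correlated positively over the 33 piglets (log2 CPM), with Pearson's r from 0.24 to 0.87 and a median of 0.63, and Spearman's rho from 0.18 to 0.88. An r over 0.5 was found in 36 of the 45 pairs, against 3.01% of all pairs of genes tested. The share of all genes with an r over 0.5 to 1 of the 10 ran from 1.30% (CBLN3) to 9.90% (ZIC2). Pairs of genes at like levels were not used as a background. By permutation (100000 draws, two-sided, adjusted over the 45 pairs), 42 pairs passed for r and 41 for rho. The pairs share genes and libraries and are not independent. The r of the 10 genes with the log2 total count lay between -0.11 and 0.13, and 0 of 10 passed an adjusted permutation test. Without the 2 piglets farthest from the median total count, this r lay between 0.0004 and 0.53, and these values were not tested.

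NEUROD1 and ZIC1 had the highest r, 0.87 (rho 0.81, permutation p = 1e-05 for both, the smallest these permutations can give, adjusted p = 2.65e-05 for r and 3e-05 for rho). Without the 2 piglets farthest from the NEUROD1 median the r was 0.84. NEUROD1 with ETV1 followed (r = 0.85, rho 0.83), then CBLN1 with ETV1 (0.84, rho 0.83) and ZIC1 with CBLN1 (0.84, rho 0.80), each with the same smallest permutation p. The r without the 2 farthest piglets was 0.82, 0.80 and 0.81 in these 3 pairs. The relatives ZIC1 and ZIC2 had an r of 0.82 (rho 0.88), NEUROD1 and NEUROD2 an r of 0.63 (rho 0.56), and CBLN1 and CBLN3 an r of 0.58 (rho 0.54). ZIC1 was the gene tied most closely to the rest, with a median r of 0.80 to the other members and an r over 0.5 with all 9 of them.

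CBLN3 and PAX6 stood furthest out. CBLN3 had a median r of 0.49 with the other 9 genes, and the 3 pairs that did not pass for r were CBLN3 with RELN (r = 0.24, rho 0.18, permutation p = 0.188 and 0.326), with PAX6 (r = 0.24, rho 0.23, permutation p = 0.178 and 0.190) and with FAT2 (r = 0.34, rho 0.31, permutation p = 0.0544 and 0.0804). PAX6 had a median r of 0.51. Without the 2 farthest piglets the r of all 45 pairs stayed above 0, with a median of 0.62 and a lowest value of 0.025, in PAX6 with CBLN3. PAX6 with NEUROD2 did not pass for rho (0.28, adjusted permutation p = 0.118), and its r of 0.40 was 0.21 without them, 0.66 in males and -0.41 in females.

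**Figure D3:**
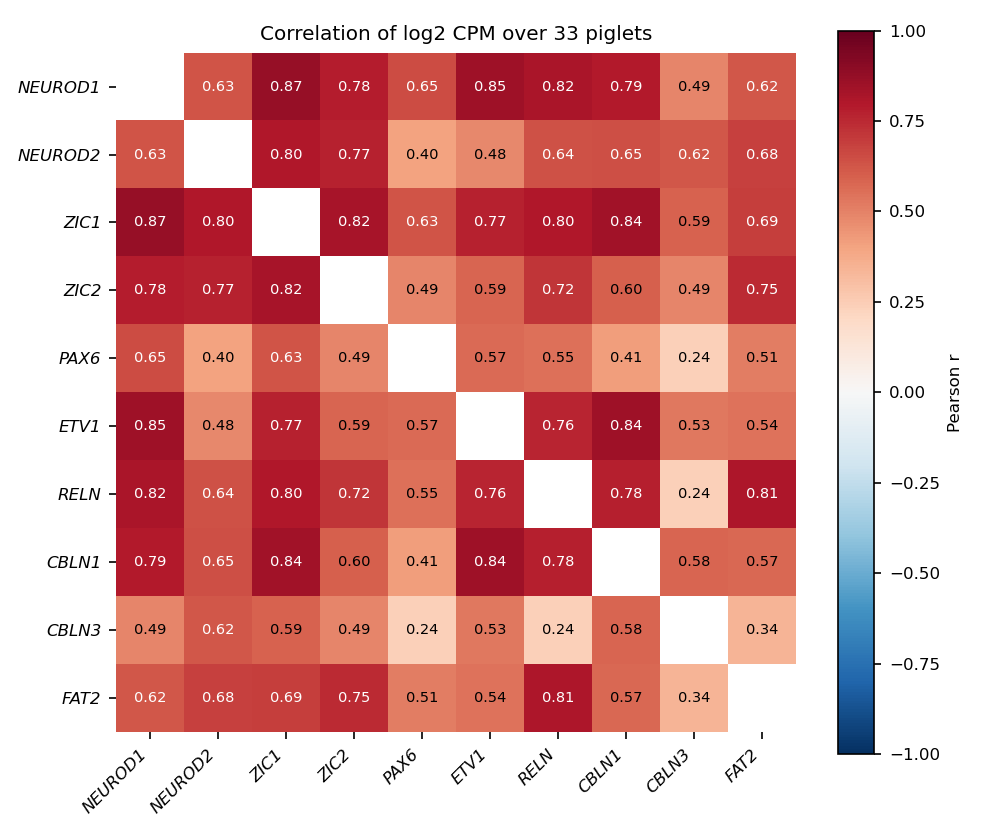
Pearson's r of log2 CPM between each 2 of the 10 genes over 33 piglets (colour and number). All 45 values are positive, from 0.24 (CBLN3 with RELN and with PAX6) to 0.87 (NEUROD1 with ZIC1).

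The co-variation remained after the group means and sex were removed. After removing the group means and sex, the median r of the 45 pairs was 0.65, with 42 pairs passing. With the share of unassigned reads removed as well it was 0.58, with 37 passing. Within single groups of 8 or 9 piglets the median r was 0.81 in VEG-NBW, 0.62 in VEG-IUGR, 0.80 in MILK-NBW and 0.55 in MILK-IUGR piglets. Without piglet 215 the median over all groups was 0.60. In 17 males all 45 pairs were positive and 42 had an r over 0.5 (median 0.79), and in 16 females 39 were positive and 15 over 0.5 (median 0.41). The lowest r in females was that of PAX6 with NEUROD2 (-0.41), and PAX6 lay between -0.13 and 0.038 with ZIC1, ZIC2, RELN, CBLN1, CBLN3 and FAT2. The r was higher in males for 44 of the 45 pairs, against 49.9% of all pairs of genes tested. The pairs share genes and piglets, so the 44 are not separate observations. Of the 45 differences, 2 passed an adjusted permutation test. This test was not among those planned, and it was not repeated without piglet 215 or with other libraries. The share of read pairs without a feature rose with the levels of 8 of the 10 genes (r up to 0.69, in FAT2) and the share of unassigned reads with those of 7 (r up to 0.60, in PAX6), by adjusted permutation tests over 190 relations. By rho the numbers were 4 and 1. The share of ambiguous read pairs fell with rising levels of 5 genes (r down to -0.67, in FAT2) and the share of read pairs aligned to several places with those of 4 (r down to -0.59, in FAT2), and by rho with 4 and 1. Their part in the co-variation of the pairs was tested only by the model with the unassigned share. The share of all genes related to these measures was not computed.

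The co-variation depended on the libraries left out. With all 36 the median r was 0.87, and without piglet 210 but with piglets 202 and 213 it was 0.41, with 24 pairs passing and 7 pairs below 0, among them NEUROD1 with ZIC1 (-0.32).

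Other genes of granule neurons moved along. The mean log2 CPM of 26 further granule neuron genes, among them the receptor subunits GABRA6 and GABRD, the transporter SLC17A7 and the factors NFIA and MEIS1, correlated positively with each of the 10 genes, with r from 0.51 (CBLN3) to 0.85 (FAT2). All 10 passed for r and for rho (permutation, adjusted over 190 relations between the 10 genes and 14 gene lists and 5 library measures). The share of all genes that would pass against this or the other list means was not computed. Genes of granule cell progenitors, 12 of them with TOP2A, ATOH1 and GLI1, did not rise with them. The r lay between -0.54 (CBLN1) and 0.10 (ZIC2), and CBLN1 (adjusted permutation p = 0.00525, r without the 2 farthest -0.47) and ETV1 (-0.46, adjusted permutation p = 0.0216, r without the 2 farthest -0.34) passed with a negative r. By rho RELN passed as well (-0.49, adjusted permutation p = 0.0210). Markers of Purkinje cells, 12 genes with CALB1 and PCP2, passed with none of the 10 genes (r from -0.30 to -0.082; 0 of 10 by rho).

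Glial genes moved the other way. The mean of 8 genes of astrocytes and Bergmann glia, among them GFAP, AQP4 and SLC1A3, correlated negatively with all 10 genes, from -0.74 (ZIC2) to -0.48 (CBLN3), and 10 passed for r and 9 for rho. Microglia genes (9, among them CSF1R and C1QA) passed with 9 of the 10 genes and oligodendrocyte genes (10, among them MBP) with 7, all with a negative r, the lowest being -0.74 for NEUROD1 with oligodendrocyte genes (rho -0.77, permutation p = 2e-05 and 1e-05, r without the 2 farthest -0.70). The summed level of the astrocyte and Bergmann glia genes ranged from 5738 to 12029 CPM (before TMM scaling) over the piglets and that of the oligodendrocyte genes from 8815 to 46369 CPM, and no gene of these 3 lists was at 0 in any of the 33 libraries. The share of all genes that would pass against these glial means was not computed, so these counts do not show a trait particular to the 10 genes. The part of the mix of cells in a sample was not tested.

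**Figure D4:**
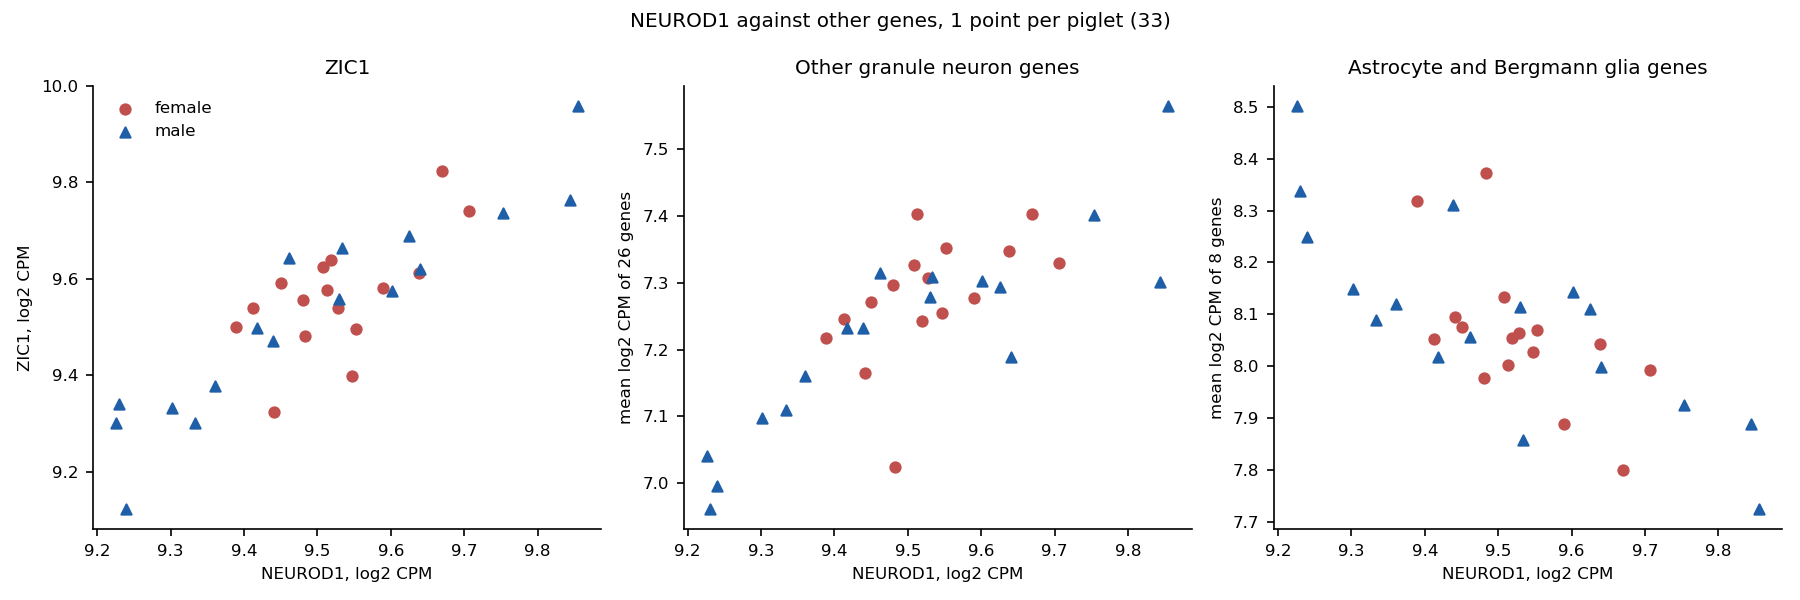
NEUROD1 (log2 CPM, horizontal axes) against ZIC1, the mean of 26 other granule neuron genes and the mean of 8 astrocyte and Bergmann glia genes (log2 CPM, vertical axes), 1 point per piglet, circles for females and triangles for males. The first 2 relations rise (r = 0.87 and 0.80) and the third falls (r = -0.74).

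Ratios within a library do not depend on the scaling between libraries. The median ratio of counts was 2.46 for NEUROD1 to NEUROD2 (range 2.05 to 3.36), 1.84 for ZIC1 to ZIC2 (1.63 to 2.55) and 1.70 for CBLN1 to CBLN3 (1.35 to 2.10). No difference in the mean log2 of the 3 ratios between diets or birth weights passed in 6 permutation tests (two-sided, 100000 draws, lowest adjusted p = 0.609). The difference nearest to the threshold was that of ZIC1 to ZIC2 between IUGR and NBW piglets, 0.055 on the log2 scale (SE 0.036, permutation p = 0.139). With all 36 libraries it was 0.22 (permutation p = 0.0456, adjusted p = 0.274), and the ratio of NEUROD1 to NEUROD2 between birth weights (-0.044) and that of CBLN1 to CBLN3 between diets (-0.22) turned below 0.

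For each gene the 3 genes most like it over the 33 piglets were listed by r among all genes tested, as a description. ZIC1 was closest to RPH3A (r = 0.91), NEUROD1 (0.87) and PCSK2 (0.87), and NEUROD1 to DYRK1A (0.89), NOVA1 (0.88) and ZIC1 (0.87). CBLN1 was closest to ETV1 (0.84), SPON1 (0.84) and ZIC1 (0.84), and ETV1 to SYNPR (0.90), CACNA2D1 (0.89) and RIMS2 (0.85). FAT2 was closest to DOCK3 (0.91), PIP5K1C (0.89) and CACNA1I (0.89), RELN to MYCBP2 (0.90), SON (0.89) and RYR2 (0.89), and NEUROD2 to ACVR1B (0.87), CIT (0.85) and ERC1 (0.84). ZIC2 had TONSL (0.87), PRPF8 (0.87) and ASTN2 (0.86), and PAX6 had TUBE1 (0.80), HNRNPU (0.78) and FNBP1L (0.77). CBLN3 reached only 0.74 (RPS6KA1), 0.70 (VSIG10L) and 0.70 (SSBP3).

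Genes that act with these 10 were listed by role and tested in the same fit. Of the 3 reelin receptor and adaptor genes (VLDLR, LRP8, DAB1), the 6 cerebellins and their partners measured (with CBLN2 and CBLN4) and the 11 relatives and dimer partners of the factors (with TCF4 and ETV5), 0 genes were called for diet, birth weight, interaction or sex by edgeR. Those with an unadjusted p-value under 0.05 were NEUROD6 for diet (-0.51, SE 0.18) and for birth weight (0.40, SE 0.18), TCF12 for birth weight (0.075, SE 0.036), and CBLN4 (0.46, SE 0.18) and CBLN2 (0.38, SE 0.17) for sex, and CBLN4 and CBLN2 had at most 57 counts in any library. Of the 26 other granule neuron genes 0 were called and NFIB passed unadjusted for diet (-0.22, SE 0.081), with a list median of -0.029. Of the 12 progenitor genes 0 were called, and ATOH1 (-0.29, SE 0.12) and TOP2A (-0.18, SE 0.087) had one for diet, with a list median of -0.050, and SFRP1 had one for sex (0.48). Of all genes 4.29% had one for diet, 2.21% for birth weight, 2.98% for sex and 6.07% for the interaction.

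The 3 libraries left out did not carry the 10 genes in one common way. Their levels are given as plain CPM, without TMM. In piglet 210 NEUROD1, ZIC1, PAX6 and FAT2 had 0 counts, which allows up to 0.378 CPM at its total count of 7936202 (3 counts, counting error only). In the same library CBLN1 stood at 77.3% and ETV1 at 57.6% of the group's median, both inside the range of the other 8 VEG-IUGR piglets, and the other 4 genes were under 10% of it. Of all genes with at least 100 counts at the group's median, 49.9% were at 0 in piglet 210, 75.0% were below the group's range and 20.1% above it, against 8 of the 10 genes below. In piglet 202, ZIC1 (20.7% of the VEG-NBW median), CBLN3 (22.3%), CBLN1 (47.1%), NEUROD2 (57.8%), RELN (64.1%) and ZIC2 (72.7%) were below the group's range and NEUROD1 (144%), PAX6 (110%) and ETV1 (162%) above it, with FAT2 (115%) inside. Of all genes with at least 100 counts at the group's median, 46.7% were below and 27.0% above in that library. Piglet 213 had 6 of the 10 genes inside the range of MILK-NBW piglets, with FAT2 (31.2%) and ZIC1 (46.0%) below and NEUROD1 (125%) and ETV1 (158%) above, against 38.1% of all such genes below and 28.8% above. The ratio of ZIC1 to ZIC2 was 0.534 in piglet 202 and 0.794 in piglet 213, under the range of the 33 libraries in both. The ratios of NEUROD1 to NEUROD2 (6.32) and of CBLN1 to CBLN3 (3.71) were above their ranges in piglet 202 and inside them in piglet 213 (2.93 and 1.77). In piglet 210 the ratio of CBLN1 to CBLN3 was 15.5.

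**Figure D5:**
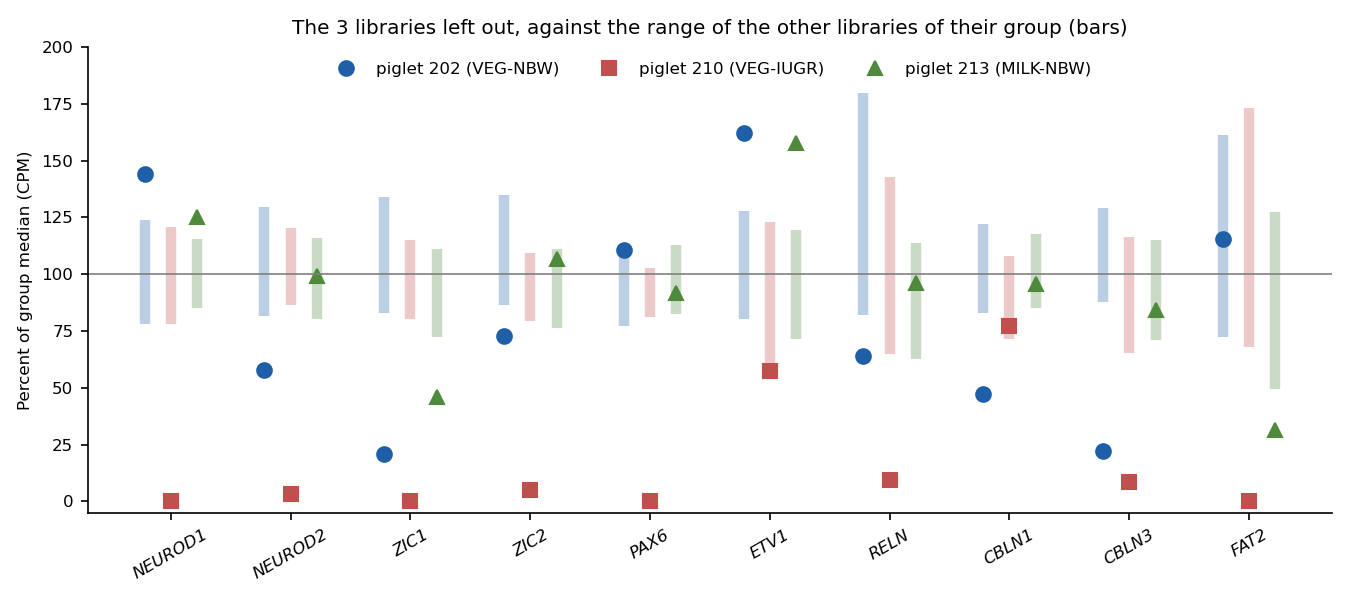
Level of the 10 genes in the 3 libraries left out (symbols), as percent of the median CPM of the other libraries of the group (vertical axis), with the range of those libraries (bars). Piglet 210 is at 0 for NEUROD1, ZIC1, PAX6 and FAT2, and ETV1 lies at 162% and 158% in piglets 202 and 213.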

How the data were processed

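RNA of the cerebellum of 36 piglets was sequenced as paired-end reads of 150 bp. Per the submitters' processing notes the tools were Trim Galore, HISAT2, HTSeq and DESeq2 and the build was Sscrofa11.1; versions, annotation release and strand setting are not given in the sources used here. The authors deposited raw counts of read pairs per Ensembl gene, 1 table per piglet, closed by 5 numbers of unassigned reads, which were kept out of library sizes and tests. Groups came from the labels.

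The study left out 3 libraries of low RNA integrity, 1 each of VEG-NBW, VEG-IUGR and MILK-NBW, without naming the piglets. Here piglets 202, 210 and 213 were left out by Dixon's rule on the share of unassigned reads, and whether they are the same libraries is not known. Symbols matched 15029 of 31907 identifiers. The fits used edgeR 4.0.16 under R 4.3.3 (scaling by the trimmed mean of M-values, filterByExpr with a minimum count of 10, quasi-likelihood F test, Benjamini-Hochberg over 15559 genes) on diet, birth weight and sex, or on the 4 group means and sex for the interaction and the contrasts between groups. Correlations used log2 CPM (prior count 2), with p-values from 100000 permutations. Genes outside the 10 were named by a rule: where no gene of a list was called, up to 2 per list with the smallest unadjusted p-value in a contrast, and the 3 nearest by r. Examples of a list's members were chosen as well-known markers after their values were seen. Alternatives used DESeq2 1.42.0, limma 3.58.1, other scalings, filters, covariates and libraries. The tests were tested on simulated data. Members and lists were chosen with earlier results of these data known. Values of some listed genes are not reported here.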

Additional observations from a re-analysis of the deposited data

Results flagged for a closer look

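In each group, the highest and the lowest piglet of the 10 genes and the 3 ratios were compared with the rest by Dixon's rule, in 52 sets of 8 or 9 piglets. Chance alone sets apart about 1 in 20 such sets, and 5 of 52 had a piglet far from the others. Piglet 206 had the highest NEUROD1 (835 CPM, the next at 741) and CBLN3 (859 CPM, the next at 712) of the MILK-IUGR group. Piglet 234 had the lowest ZIC1 of the MILK-NBW group (558 CPM, the next at 723). Piglet 227 had the lowest PAX6 of the VEG-IUGR group (149 CPM, the next at 172). Piglet 207 had the highest ratio of ZIC1 to ZIC2 in the MILK-IUGR group (2.55, the next at 2.00), with the lowest ZIC2 of all 33 piglets (281 CPM).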

How the results depend on the processing

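In 71 fits under 9 alternatives, 0 of the 10 genes were called for any contrast (lowest adjusted p-value 0.636). No paired analysis was possible because no piglet number is shared between groups. Signs of estimates near 0 turned, and the cause was not tested. With all 36 libraries the diet estimates (log2) were 0.085 for NEUROD2, 0.061 for ZIC1, 0.052 for ZIC2, 0.058 for PAX6, 0.029 for RELN, 0.035 for CBLN1 and 0.092 for CBLN3, where the median of all genes was 0.038. The birth weight estimates were then -0.13 for NEUROD1, -0.071 for PAX6 and -0.079 for ETV1 (all genes -0.044), and the sex estimates 0.018 for NEUROD1, 0.023 for NEUROD2, 0.080 for ZIC1, 0.080 for ZIC2, 0.0022 for PAX6 and 0.079 for RELN (all genes 0.038). The interaction was 0.037 for NEUROD2, 0.098 for ZIC1 and 0.061 for ZIC2 (all genes 0.14). With the unassigned share in the model, diet gave 0.0099 for PAX6, birth weight 0.0061 for FAT2, sex 0.0095 for NEUROD1, 0.0054 for ZIC1, 0.028 for ZIC2 and 0.045 for RELN, and the interaction -0.026 for NEUROD1, -0.016 for RELN and -0.16 for FAT2. By limma voom diet gave 0.0037 for RELN and 0.016 for FAT2. The CBLN1 interaction was 0.0029 with DESeq2's size factors, 0.0048 with at least 10 counts in every piglet, 0.0084 without sex and 0.0024 by DESeq2. The log2 ratio of NEUROD1 to NEUROD2 differed by -0.044 between birth weights and that of CBLN1 to CBLN3 by -0.22 between diets with all 36 libraries, and that of ZIC1 to ZIC2 by -0.013 between diets without piglet 207. Of the 45 pairs, 42 passed with 33 libraries and 24 with 36 less piglet 210, where r was -0.32 for NEUROD1 with ZIC1, -0.33 for NEUROD1 with CBLN3, -0.087 for ZIC1 with PAX6, -0.26 for ZIC1 with ETV1, -0.033 for PAX6 with CBLN1, -0.28 for PAX6 with CBLN3 and -0.20 for CBLN3 with ETV1. The pairs without piglet 215 and without piglet 207 were added after the data were seen. Depth limits little here, since each gene had at least 2368 counts in the 33 libraries, and the number of piglets and their spread set the width of the intervals.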

Other observations

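The spread of these genes between piglets was compared between males and females after the data were seen. The 6 piglets with the lowest NEUROD1 levels and the 3 with the highest were all male. These 2 cuts were chosen after the data were seen, and the runs are a description with no test. The standard deviation of log2 CPM was 2.29 times as large in 17 males as in 16 females for NEUROD1 (two-sided permutation p = 0.00217, adjusted over all 15559 genes 0.447), and 0.431% of all genes had a ratio at or above it. It was 1.89 times as large for PAX6, 1.78 for ZIC1 and 1.76 for ETV1, and 0.981 for FAT2. The ratio was above 1 for 9 of the 10 genes, against 55.8% of all genes. By unadjusted permutation p-values under 0.05, 4 of the 10 genes and 7.10% of all genes differed. After adjustment 0 of the 10 and 8 of all genes did. The 10 genes share piglets and vary together, so these counts are not separate observations. For NEUROD1 the ratio was 2.63 after removing the group means, 2.30 with DESeq2's size factors, 2.10 without piglet 215 and 1.16 with 36 libraries less piglet 210. The median r over the 45 pairs was 0.79 in males and 0.41 in females, and 44 pairs were higher in males, against 49.9% of all pairs of genes. The pairs share genes and piglets, and the test of these differences was not among those planned. Of the 45 pairs, 2 passed a permutation test adjusted over the 45 pairs, ZIC1 with ZIC2 (0.97 against 0.55, adjusted p = 0.0351) and NEUROD1 with ZIC2 (0.94 against 0.49, adjusted p = 0.0497).

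Among genes of other cells, 0 of any list were called. The 10 oligodendrocyte genes were all estimated above 0 for diet (median 0.12, log2), birth weight (0.13) and sex (0.11) and below 0 for the interaction (-0.22). The 12 granule progenitor genes were all estimated below 0 for the interaction (median -0.13). Genes of a list share piglets, so these signs are not separate observations. The choroid plexus genes TTR and CLIC6 had an interaction of 4.55 (SE 1.54) and 4.44 (SE 1.49), with adjusted p-values of 0.793 by edgeR. TTR ranged from 23 to 25022 counts (median 314) and CLIC6 from 0 to 599 (median 8) over the 33 libraries. Whether a few libraries set these estimates was not tested.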
